A study of Mus musculus with 6 samples.

Results

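The circadian clock genes described here are 10 genes listed by name: the activators Arntl (also written Bmal1), Clock and Npas2, the repressors Nr1d1, Nr1d2, Per1 and Per2, and the output regulators Dbp, Hlf and Tef. Members were found by matching the platform annotation's gene symbols, and 9 of the 10 had a probe set, 1 each, among the 19938 genes measured. Npas2, a relative of Clock that can replace it as partner of ARNTL, was not analysed here. The cells were innate lymphoid cells of group 3 (ILC3s) carrying the chemokine receptor CCR6, sorted from the lamina propria of the small intestine of adult C57BL/6 mice, and each of 6 samples was read on 1 Affymetrix expression array. In the RANKL-deficient group, 3 samples came from mice in which a Cre recombinase acts on floxed alleles of Tnfsf11, the gene of the cytokine RANKL. The control group held 3 samples from Tnfsf11fl/fl mice, which carry the same floxed alleles and for which no Cre is named. The deletion is not limited to the sorted cells. Cre itself and the deletion cannot be told apart. The labels give no hour of tissue collection and no light cycle, and do not state that each sample is a different mouse, so p-values here measure only how far these samples lie apart, and that spread may be technical.

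The mammalian clock is a transcriptional loop with a period of about a day. ARNTL and CLOCK bind as a pair to E-boxes and switch on the period, cryptochrome and Nr1d genes, whose products then act back on the loop: period and cryptochrome proteins inhibit the pair, and the REV-ERB receptors encoded by Nr1d1 and Nr1d2 repress Arntl. REV-ERB proteins share their DNA elements with the ROR activators, such as the product of Rora. Dbp, Hlf and Tef encode leucine zipper proteins of the PAR family, which pass the rhythm to genes with D-boxes. In mice, ILC3s of the gut have been described to express clock genes rhythmically and to depend on Arntl and Nr1d1.

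No clock gene differed between RANKL-deficient and control cells past the adjusted threshold, and most differences were small. By limma with Benjamini-Hochberg adjustment over all genes, 0 of 9 passed at an adjusted p of 0.05, where 0.00502% of all genes passed. At an unadjusted p under 0.05 there were 2 of 9, Hlf and Per1, both higher in RANKL-deficient cells and 0 lower, against 8.15% of all genes (4.25% higher and 3.9% lower). The groups' arrays were fully separate for 3 of 9 members, 2 higher (Hlf and Per1) and 1 lower (Nr1d1), against 14.4% of all genes (5.28% higher and 9.08% lower). Of the 9, 5 had higher and 4 lower mean values, with a median log2 difference of 0.010, RANKL-deficient minus control, beside −0.054 over all genes. All values below are log2 expression values, and every difference is on the log2 scale, RANKL-deficient minus control, unless a fold is named.

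**Figure D1:**
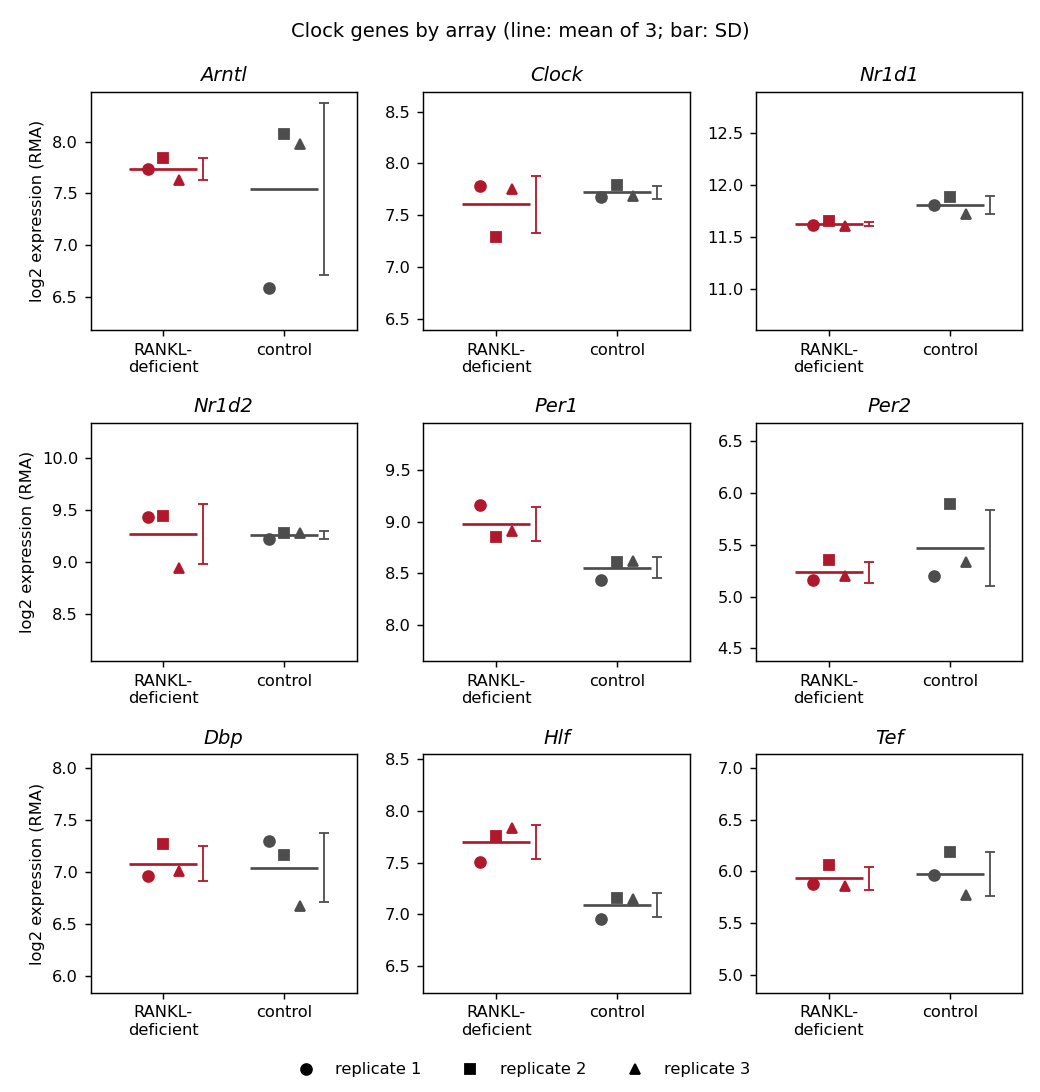
Log2 expression of the 9 clock genes on each of the 6 arrays, 3 RANKL-deficient (left) and 3 control (right) in each panel; symbols mark the replicate number, lines the group mean and bars the SD, and all panels span the same log2 range. The groups separate for Hlf, Per1 and, by a narrow gap, Nr1d1, and control array 1 lies far below the other arrays for Arntl.

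Before the members, the arrays themselves: control array 1 had the narrowest spread over genes (SD 1.86) and control array 2 the next (1.93), against 1.99 to 2.01 on the other 4. Many of the differences below, but not all, are therefore also given without 1 or both of these control arrays. Array weights estimated by limma, low for arrays that deviate more, were 0.45, 1.43 and 0.60 for control arrays 1, 2 and 3. By that measure control array 3 ranked below control array 2. Defining ILC3 transcripts were present on every array, with Il7r at 12.23 to 12.29 in RANKL-deficient and 12.26 to 12.32 in control cells and Il23r at 10.71 to 10.86 in RANKL-deficient and 10.40 to 10.89 in control cells, where the array medians over genes were 5.07 to 5.15. The sort marker Ccr6 read 9.28 to 9.55 in RANKL-deficient and 8.59 to 9.80 in control cells. Of 15 defining markers measured, 10 had higher and 5 lower means and 0 passed the adjusted threshold by limma. The groups did not overlap for 3, all higher, against 5.28% of all genes in that direction. These were Cxcr5, a chemokine receptor (0.85, limma adjusted p = 0.377), the cytokine gene Lta (0.36) and the surface marker Thy1 (0.21). By limma 1 of the 15, Cxcr5, had an unadjusted p under 0.05, against 8.15% of all genes. Tnfsf11 differed by 0.035 (limma adjusted p = 0.963), and since the position of its probe set relative to the floxed part is not given, this checks no label.

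Arntl, the activator without which the loop stops in mice, had nearly the same mean in both groups, but its control values were spread widely. It measured 7.74, 7.84 and 7.63 in RANKL-deficient cells, against 6.59, 8.07 and 7.98 in control cells. The low value of control array 1 lay below all others, while the other control arrays lay above every RANKL-deficient array, so the groups overlapped. The means were 7.74 ± 0.10 in RANKL-deficient and 7.55 ± 0.83 in control cells (SD, n = 3 each), a difference of 0.19 (limma adjusted p = 0.896), whose 95% confidence interval ran from −0.70 to 1.08. The sign depended on that array: without control array 1 the difference was −0.29, and no RANKL-deficient value overlapped the remaining control values. The within-group SD of Arntl, 0.59, was larger than that of 94.7% of all genes, whose median was 0.21. Clock, the partner of ARNTL, measured 7.78, 7.29 and 7.75 in RANKL-deficient cells, against 7.68, 7.79 and 7.69 in control cells. RANKL-deficient array 2 was the low one, and the other 5 values lay within a narrow band. Its difference was −0.11, with an interval of −0.50 to 0.27 (limma adjusted p = 0.857), and without RANKL-deficient array 2 it was 0.046.

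Nr1d1, which encodes REV-ERBα, was lower on every RANKL-deficient array, by little. It measured 11.62, 11.65 and 11.61 in RANKL-deficient cells, against 11.81, 11.89 and 11.72 in control cells. The groups did not overlap, but only 0.069 separated the highest RANKL-deficient from the lowest control value. The difference was −0.18 (SE 0.12), with an interval of −0.45 to 0.095, and it did not pass (limma adjusted p = 0.706, exact two-sided permutation p = 0.1, the smallest that 3 arrays against 3 can give). Its replicates were close to each other, with a within-group SD of 0.061, and 2.47% of all genes had a smaller one. The size of the difference varied with the scaling. It was −0.31 after quantile normalization and −0.27 after cyclic loess, where its unadjusted p was 0.0369 and 0.0438, and −0.13 after median centring. Without control arrays 1 and 2 it was −0.092. By the gene table of assembly GRCm38.p6, Nr1d1 overlaps Thra, the gene of a thyroid hormone receptor, by 1075 bases, and the position of the probe set relative to that overlap is not given. Thra itself had a difference of 0.14 (limma adjusted p = 0.809).

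Nr1d2, which encodes the related repressor REV-ERBβ, showed no difference between the means. It measured 9.43, 9.44 and 8.94 in RANKL-deficient cells, against 9.22, 9.28 and 9.28 in control cells. The control values lay between the low RANKL-deficient array 3 and the other RANKL-deficient arrays. The difference was 0.010 with an interval of −0.38 to 0.40 (limma adjusted p = 0.989), or 0.768-fold to 1.32-fold. Its sign turned under 6 of 16 alternative settings, between −0.082 and 0.17. The change of Nr1d1 relative to Nr1d2 within each array was −0.19, with overlapping groups (exact two-sided permutation p = 0.4, adjusted over 5 such pairs 0.5).

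The promoters of Nr1d1 and of its target Arntl are shown because they hold letter matches to element types of the loop. They are RefSeq windows of 250 bases before and 50 after a start site, build GRCm38.p6, printed 5′ to 3′ on the gene's strand, with motif matches in capitals. One of 2 Arntl windows, chr7:113207261-113207560 on the plus strand, holds a ROR and REV-ERB element whose first base is at position 28, counting the start site as 1 and the base before it as −1. The other, chr7:113207215-113207514, held none of the motifs searched. The Nr1d1 window, chr11:98775328-98775627 on the minus strand, holds the E-box variant CACGTT, read on the other strand as AACGTG, with its first base at −28.
Arntl: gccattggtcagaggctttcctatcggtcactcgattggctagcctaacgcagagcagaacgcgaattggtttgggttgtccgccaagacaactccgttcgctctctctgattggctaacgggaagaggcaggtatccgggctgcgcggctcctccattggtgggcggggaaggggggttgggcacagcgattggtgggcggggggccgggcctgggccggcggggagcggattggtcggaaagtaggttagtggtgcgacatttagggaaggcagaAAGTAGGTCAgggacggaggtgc
Nr1d1: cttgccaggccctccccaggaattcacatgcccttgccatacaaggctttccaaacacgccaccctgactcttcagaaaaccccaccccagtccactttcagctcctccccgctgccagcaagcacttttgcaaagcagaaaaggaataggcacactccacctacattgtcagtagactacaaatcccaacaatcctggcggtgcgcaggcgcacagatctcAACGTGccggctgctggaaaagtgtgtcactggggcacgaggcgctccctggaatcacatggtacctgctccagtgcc
Of all 32851 windows searched on both strands, the ROR and REV-ERB element was in 0.219% and CACGTT in 4.68%. A match describes the letters of the window and is not evidence of binding in these cells.

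Per1, a period repressor that is also an immediate early gene, responding directly to cAMP signalling and glucocorticoids, was higher on every RANKL-deficient array. It measured 9.16, 8.85 and 8.91 in RANKL-deficient cells, against 8.44, 8.61 and 8.62 in control cells. All RANKL-deficient values lay above all control values, with a gap of 0.23, and RANKL-deficient array 1 was the highest. The means were 8.97 ± 0.16 in RANKL-deficient and 8.56 ± 0.10 in control cells (SD, n = 3 each), a difference of 0.42 (SE 0.14), or 1.34-fold with a 95% interval of 1.07 to 1.68. It did not pass over all genes (limma unadjusted p = 0.0186, adjusted p = 0.557; exact two-sided permutation p = 0.1). The difference stayed between 0.33 and 0.48 under all 16 alternative settings, and was 0.35 without control arrays 1 and 2. Per1 has 1 probe set, so the filter, probe set rule, eBayes options and replicate block could not change this difference. In fits with more than 1 control array, the limma unadjusted p was under 0.05 with 1 exception. That was the fit without RANKL-deficient array 1, where the difference was 0.33.

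Per2, a second period repressor, had a lower mean in RANKL-deficient cells. It measured 5.16, 5.35 and 5.20 in RANKL-deficient cells, against 5.20, 5.89 and 5.33 in control cells. The groups overlapped, and control array 2 was the high one. The difference was −0.24 with an interval of −0.71 to 0.23 (limma adjusted p = 0.753), and it was −0.029 without control array 2. Its values lay near the array medians over genes. The change of Per1 relative to Per2 within each array was 0.66, and the arrays of the groups did not overlap in it (exact two-sided permutation p = 0.1, adjusted over 5 pairs 0.167). Per1 alone already separated the groups, so this is not an independent result.

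Hlf had the largest difference of the 9 clock genes and was higher on every RANKL-deficient array. HLF is known beyond the clock as a transcription factor of blood stem cells in mice and humans. It measured 7.51, 7.76 and 7.83 in RANKL-deficient cells, against 6.96, 7.16 and 7.15 in control cells. The groups were 0.35 apart at their nearest values, more than the range within either group (0.32 in RANKL-deficient and 0.20 in control cells). The means were 7.70 ± 0.17 in RANKL-deficient and 7.09 ± 0.11 in control cells (SD, n = 3 each), a difference of 0.61 (SE 0.14), or 1.53-fold with a 95% interval of 1.21 to 1.92. It did not pass over all genes (limma unadjusted p = 0.00331, adjusted p = 0.421; exact two-sided permutation p = 0.1). The difference lay between 0.52 and 0.71 under all 16 alternative settings, and was 0.55 without control arrays 1 and 2. Hlf has 1 probe set, so the filter, probe set rule, eBayes options and replicate block could not change this difference. In all fits with more than 1 control array the limma unadjusted p was under 0.05. The adjusted p there was at least 0.229 and as high as 0.816.

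The other PAR family members showed little difference between the means. Dbp, the family member whose transcript swings most widely over the day in mouse liver, measured 6.96, 7.27 and 7.01 in RANKL-deficient cells, against 7.30, 7.16 and 6.67 in control cells. The control values enclosed those of the RANKL-deficient group, with control array 3 the lowest. Its difference was 0.036 with an interval of −0.42 to 0.50 (limma adjusted p = 0.967), but it was −0.15 without control array 3, 0.41 without control arrays 1 and 2, and −0.060 without RANKL-deficient array 2. Tef measured 5.88, 6.06 and 5.86 in RANKL-deficient cells, against 5.97, 6.19 and 5.77 in control cells. Its control values likewise enclosed the others, and the difference was −0.042 with an interval of −0.40 to 0.31 (limma adjusted p = 0.948). Within arrays, the change of Hlf was larger than that of Dbp by 0.58 and than that of Tef by 0.65. In both, the groups did not overlap (exact two-sided permutation p = 0.1, adjusted over 5 pairs 0.167). Hlf alone already separated the groups, so these pairs add no independent result. The 5 pairs were not among the planned comparisons, and Dbp against Tef was not one of them.

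**Figure D2:**
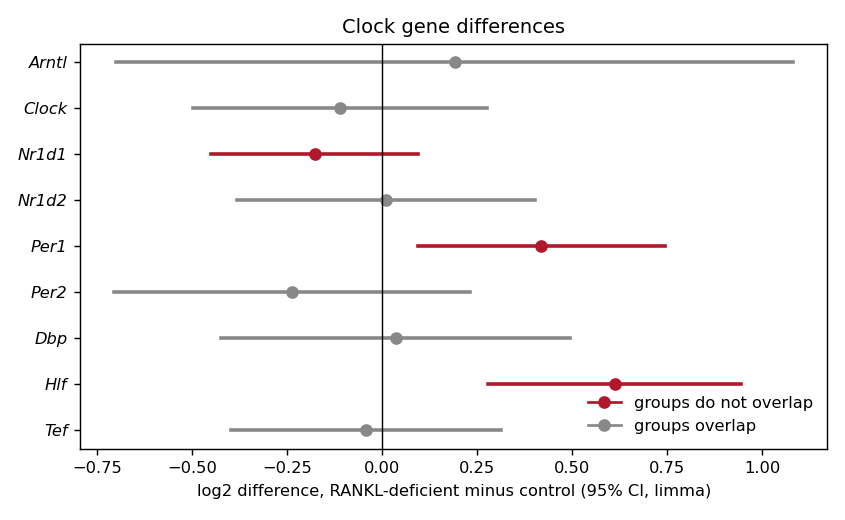
Log2 difference, RANKL-deficient minus control, of each of the 9 clock genes (points) with its 95% confidence interval from limma (lines). Genes whose 3 RANKL-deficient and 3 control arrays do not overlap are red; the intervals of Hlf (0.28 to 0.94) and Per1 (0.094 to 0.74) lie above 0 before adjustment, and the interval of Arntl is the widest.

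The promoter windows of Per1 and Hlf are shown because these members had the larger differences. The Per1 window, chr11:69098699-69098998 on the plus strand, holds the E-box CACGTG with its first base at −166, and a second Per1 window, chr11:69099902-69100201, held none of the motifs searched. The Hlf window, chr11:90390868-90391167 on the minus strand, holds the cAMP response element TGACGTCA with its first base at −9.
Per1: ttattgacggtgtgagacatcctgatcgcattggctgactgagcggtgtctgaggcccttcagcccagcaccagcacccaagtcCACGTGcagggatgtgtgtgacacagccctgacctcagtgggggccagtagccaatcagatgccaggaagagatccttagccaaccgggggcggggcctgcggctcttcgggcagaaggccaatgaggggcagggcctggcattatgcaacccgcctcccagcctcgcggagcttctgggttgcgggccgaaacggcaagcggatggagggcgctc
Hlf: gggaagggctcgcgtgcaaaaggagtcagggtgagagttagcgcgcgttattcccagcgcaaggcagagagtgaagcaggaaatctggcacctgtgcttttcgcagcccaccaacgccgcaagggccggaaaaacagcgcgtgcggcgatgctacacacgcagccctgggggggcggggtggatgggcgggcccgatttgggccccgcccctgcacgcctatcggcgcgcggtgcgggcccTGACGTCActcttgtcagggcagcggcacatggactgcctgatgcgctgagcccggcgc
The E-box CACGTG was in 7.15% of all windows and TGACGTCA in 1.79%. Of the 10 listed genes, 9 had 14 windows between them. The E-box was in 3 of the 14, which belong to Per1 and Tef, and both of those of Tef held it. The D-box TTATGTAA, in 0.938% of all windows, and the glucocorticoid response element, in 0.475%, matched in 0 of the 14, which says only that these letters are not in the windows.

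The members did not move as a block across the arrays. On control array 2, 7 of the 9 lay above their own mean over the 6 arrays, and on RANKL-deficient array 3 only 3 did. The activators Arntl and Clock averaged 0.11, −0.087 and 0.038 from their own means on the RANKL-deficient arrays, against −0.51, 0.28 and 0.18 on the control arrays. The REV-ERB genes averaged 0.036, 0.053 and −0.21 on the RANKL-deficient arrays, against 0.023, 0.092 and 0.011 on the control arrays. The spread between control arrays was thus wider than the difference between groups for the activators. RANKL-deficient array 3 was the low one for the REV-ERB genes, mainly through Nr1d2 (−0.32). Nr1d1 alone lay below its own mean on all RANKL-deficient and above it on all control arrays. The period genes averaged 0.098, 0.043 and −0.005 on the RANKL-deficient arrays, against −0.24, 0.19 and −0.084 on the control arrays. For the PAR family these were −0.021, 0.23 and 0.096, against −0.061, 0.032 and −0.27. Against the pattern of Nr1d1, the nearest genes by root mean square distance of mean-centred log2 values over the 6 arrays were Olfr575, Ebf2, Akr1c20, Rab7b and Vmn2r112, at 0.017 to 0.025. Of 19738 genes ranked this way, Rora stood at 224, Csnk1d at 618, Bhlhe40 at 1180 and Tef at 2471. The other members stood further off: Clock at 7678, Per2 at 8709, Nr1d2 at 8925, Dbp at 10114, Per1 at 14819, Hlf at 16753 and Arntl at 18036. Genes below a set fraction of the SD of Nr1d1 over the 6 arrays were not ranked. The measure favours genes of small variation, as Nr1d1 itself varied little.

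**Figure D3:**
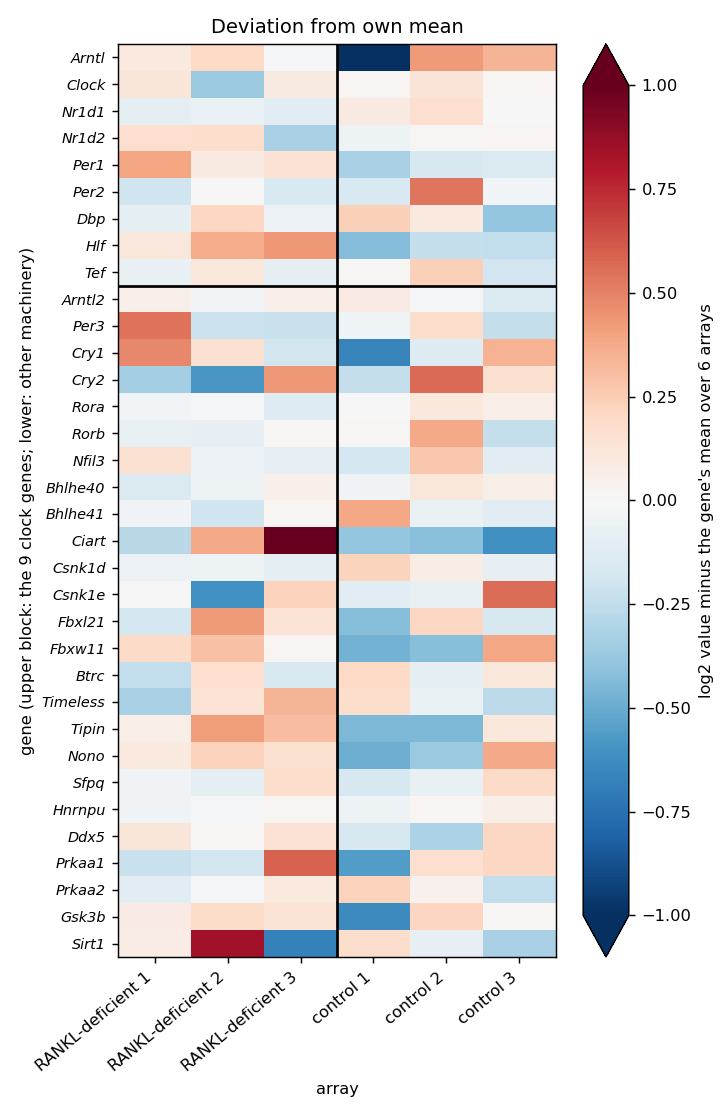
Log2 value of each clock gene on each array minus that gene's mean over the 6 arrays (colour, saturated at −1 and 1), with RANKL-deficient arrays left of the vertical line and control arrays right of it, the 9 clock genes above the horizontal line and 25 other genes of the clock machinery below it. Red means above and blue below the gene's own mean; Hlf and Per1 are red on all RANKL-deficient and blue on all control arrays, and Arntl is deep blue on control array 1.

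The rest of the clock machinery was counted in the same way. Of 27 further genes listed (other repressors, ROR receptors, kinases, ubiquitin ligase subunits and cofactors), 25 were measured. By limma, 0 of 25 passed the adjusted threshold and 2 had an unadjusted p under 0.05, both higher, against 8.15% of all genes. The arrays of the groups did not overlap for 2 of 25, 1 higher and 1 lower, against 14.4% of all genes (5.28% higher and 9.08% lower). The median difference was 0.049, with 15 genes higher and 10 lower. Ciart, also called Chrono, a repressor that binds ARNTL, measured 4.17, 4.83 and 5.77 in RANKL-deficient cells, against 4.06, 4.03 and 3.83 in control cells. The groups did not overlap, but RANKL-deficient array 3 was far above the rest, and without it the difference of 0.95 (SE 0.37, limma adjusted p = 0.599) was 0.53. Its other probe set, with a mean of 3.42, gave 0.47. The control values of Ciart and those of RANKL-deficient arrays 1 and 2 lay below the array medians. Tipin, a partner of TIMELESS at replication forks, measured 6.59, 6.94 and 6.83 in RANKL-deficient cells, against 6.07, 6.08 and 6.63 in control cells. Control array 3 overlapped the RANKL-deficient group. The difference of Tipin was 0.53 (SE 0.19, limma adjusted p = 0.589), and 0.16 without control arrays 1 and 2.

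Next by p were Fbxw11, a subunit of the ubiquitin ligase that degrades period proteins, at 0.34, and Nono, an RNA-binding partner of period proteins, at 0.32. Gsk3b, a kinase that acts on clock proteins, differed by 0.27, and Fbxl21, a ligase subunit for cryptochromes, by 0.26. Without control array 1 these were 0.020 for Gsk3b, 0.11 for Fbxl21, 0.19 for Fbxw11 and 0.16 for Nono. None of the 4 passed, with limma adjusted p from 0.722 to 0.759. Fbxw11 and Nono turned to −0.21 each without control arrays 1 and 2. The following genes were named after their values were seen. The cryptochrome repressor Cry1 differed by 0.30 (SE 0.28) with overlapping groups, and by 0.038 without control array 1. Its relative Cry2 differed by −0.32 (SE 0.31), also with overlap, and leaving out 1 array moved this to between −0.62 (without RANKL-deficient array 3) and −0.11 (without RANKL-deficient array 2). Per3, the remaining period gene, measured 5.74, 4.99 and 4.99 in RANKL-deficient cells, against 5.16, 5.38 and 4.97 in control cells. Its groups overlapped, and the difference was 0.072 (limma adjusted p = 0.942). Rora, a ROR activator that competes with REV-ERB, measured 10.27, 10.28 and 10.17 in RANKL-deficient cells, against 10.31, 10.41 and 10.37 in control cells. Its groups did not overlap, and its difference was −0.12 (limma adjusted p = 0.780). Nfil3, a repressor at D-boxes that is needed for innate lymphoid cell development in mice, differed by 0.0039.

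Because Per1 also responds to glucocorticoids and to cAMP and serum signals, those gene lists are given beside it. Both lists were chosen with earlier results of these data known, so their counts are not an independent result. Of 14 glucocorticoid response genes, all measured, 6 had higher and 8 lower means, and the median difference was −0.043. By limma 0 of 14 passed the adjusted threshold and 5 had an unadjusted p under 0.05, 4 higher and 1 lower, against 8.15% of all genes. The groups did not overlap for 6 of 14, 4 higher and 2 lower, against 14.4% of all genes (5.28% higher and 9.08% lower). Per1 is among the 6 and is itself on the list. Sgk1, a kinase gene of the list named with its values in view, was lower with separate groups. Its difference was −0.25 (SE 0.15, limma adjusted p = 0.687). Fkbp5, a co-chaperone that restrains the glucocorticoid receptor, measured 6.88, 7.05 and 6.95 in RANKL-deficient cells, against 6.29, 6.23 and 6.62 in control cells. Its difference was 0.58 (SE 0.15, limma adjusted p = 0.423), with all RANKL-deficient arrays above all control arrays, and 0.34 without control arrays 1 and 2. Tsc22d3, the glucocorticoid-induced leucine zipper, was singled out with its values in view. It was higher by 0.41, with a gap of 0.038 between the groups (limma adjusted p = 0.606), and by 0.21 without control arrays 1 and 2. Mt1, a metallothionein, was lower on every RANKL-deficient array, at 7.17, 7.08 and 6.30 in RANKL-deficient cells, against 9.03, 7.57 and 7.44 in control cells. Control array 1 was the high one, and without it the difference of −1.16 was −0.65.

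Of 13 genes of the cAMP and serum response, 10 had higher means, with a median of 0.27. By limma 0 of 13 passed the adjusted threshold and 3 had an unadjusted p under 0.05, all higher, against 4.25% of all genes in that direction. The groups did not overlap for 4 of 13, all higher, against 5.28% of all genes in that direction. Fos, a subunit of the transcription factor AP-1, measured 10.96, 10.93 and 10.75 in RANKL-deficient cells, against 10.33, 10.34 and 10.40 in control cells. The gap between the groups was wider than either group's own range, and the difference was 0.52 (SE 0.12, limma adjusted p = 0.423). Dusp1, a phosphatase of MAP kinases that stands in both lists, measured 12.12, 12.13 and 12.11 in RANKL-deficient cells, against 11.59, 11.37 and 11.85 in control cells, a difference of 0.52 (SE 0.15, limma adjusted p = 0.513) and 0.27 without control arrays 1 and 2. Ier2, an immediate early gene, differed by 0.90 (SE 0.24, limma adjusted p = 0.438), and by 0.36 without control arrays 1 and 2. Nr4a1, an activation-induced nuclear receptor, differed by 0.76 (SE 0.36) with overlapping groups, and by 0.041 without those arrays. The part of these genes' signals in the value of Per1 was not tested.

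**Figure D4:**
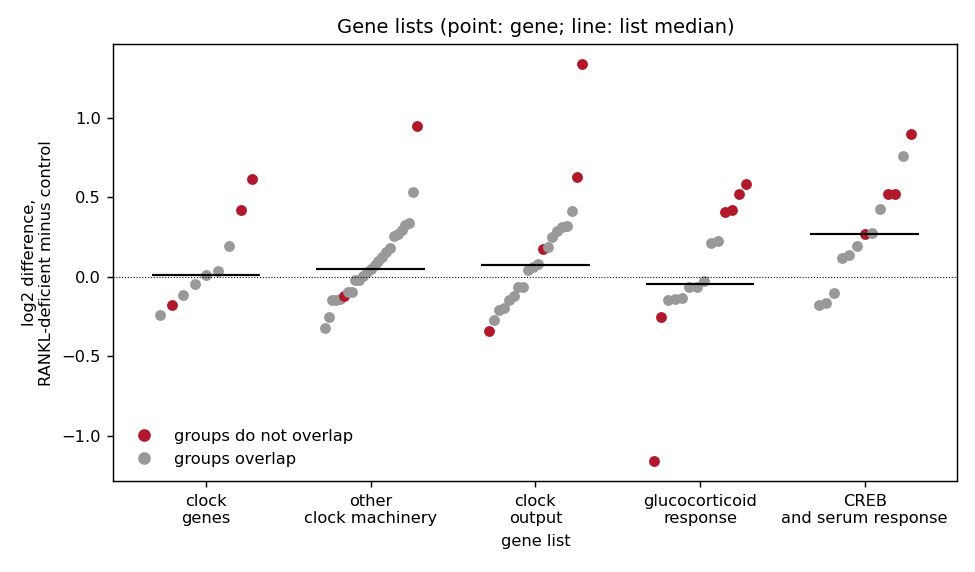
Log2 difference, RANKL-deficient minus control, of every measured gene (points, ordered by size within a list) in the clock list and 4 further lists, with the list median as a line. Red points are genes whose 3 RANKL-deficient and 3 control arrays do not overlap; the medians lie between −0.043 (glucocorticoid response) and 0.27 (cAMP and serum response, labelled CREB).

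Markers of other cells that the sort could hold mostly had lower means in RANKL-deficient cells, as did 12054 of all 19938 genes, and 0 of the markers passed the adjusted threshold by limma. Of 7 T cell markers measured, 5 were lower in RANKL-deficient cells, and the list mean per array was 5.63 to 5.93 in RANKL-deficient and 5.73 to 6.19 in control cells. Cd3g, the marker with the largest fall, measured 5.26, 4.20 and 4.89 in RANKL-deficient cells, against 7.32, 6.93 and 5.82 in control cells (limma adjusted p = 0.408). The 2 T cell markers with higher means were Cd3d and Cd4. Cd3d differed by 0.26 with overlapping groups (limma adjusted p = 0.827). Cd4, which ILC3s of this subset also express, differed by 0.69 (limma adjusted p = 0.523). List means per array were 5.08 to 5.23 in RANKL-deficient and 5.28 to 5.34 in control cells for B and plasma cells, with 6 of 7 markers lower. For macrophages and dendritic cells they were 4.76 to 5.26 in RANKL-deficient and 5.09 to 5.18 in control cells, with 6 of 11 lower. For NK cells and ILC1 they were 4.05 to 4.22 in RANKL-deficient and 4.22 to 4.60 in control cells, with 6 of 7 lower. For stromal and endothelial cells they were 5.51 to 5.71 in RANKL-deficient and 5.75 to 5.85 in control cells, with 7 of 8 lower, and for epithelial cells 4.88 to 5.70 in RANKL-deficient and 5.40 to 5.51 in control cells, with 7 of 9 lower. All 6 mast cell and granulocyte markers, 3 of 4 ILC2 markers and all 3 of neurons and glia were lower, with list means of 3.57 to 3.77, 4.30 to 4.65 and 4.26 to 4.51 in RANKL-deficient cells, against 3.74 to 3.92, 4.52 to 4.72 and 4.56 to 5.20 in control cells. In this sorted bulk RNA, fewer cells of a type and less RNA per cell cannot be told apart, and the part of other cells in the clock gene values was not tested.

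**Figure D5:**
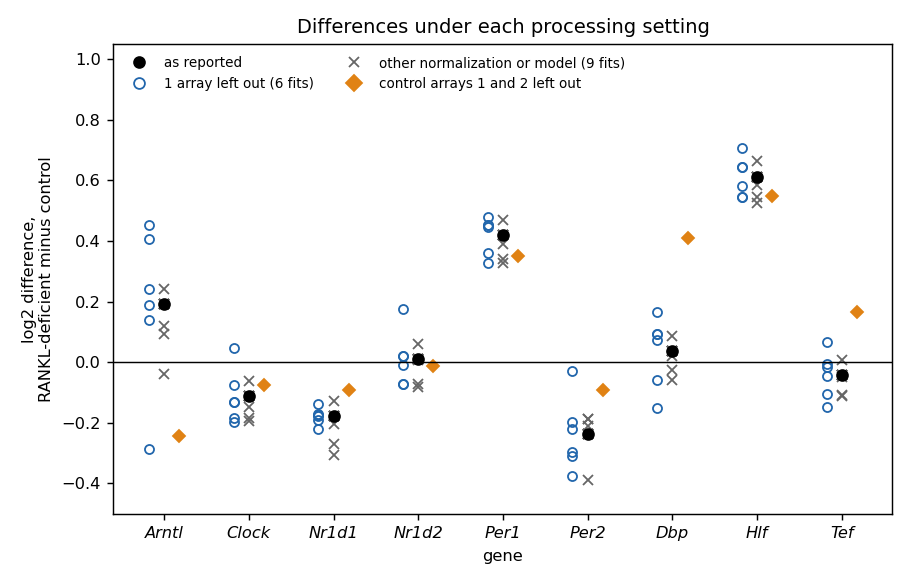
Log2 difference, RANKL-deficient minus control, of the 9 clock genes as reported (black) and under 16 alternative settings: 1 array left out in each of 6 fits (open circles), another normalization, filter, probe set rule or model in 9 fits (crosses) and control arrays 1 and 2 both left out (diamonds). Per1 and Hlf stay above 0 and Nr1d1 and Per2 below 0 in all, while Arntl, Clock, Nr1d2, Dbp and Tef fall on both sides. Each gene has 1 probe set, so the filter, probe set rule, eBayes options and replicate block could not change its difference.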

How the data were processed

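The data are 6 Affymetrix expression arrays. The authors deposited log2 values for 35556 probe sets. The submitters' processing notes name RMA and Affymetrix Expression Console. On versions, settings and build, nothing is stated in the labels or headers. RNA was amplified from small inputs, per the labels' protocols. Arrays give no read depth, and their number limits the precision.

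Of the probe sets, 21789 had 1 gene symbol in the platform annotation, 1621 had several and 12146 had none, and only the first were tested. Symbols were updated by Entrez identifier (19855 of 19938 genes matched). For 999 genes with more than 1 probe set, the one with the highest mean was used. Groups came from the sample titles. The driver of the Cre is not reported here. Groups were compared with lmFit and eBayes of limma 3.58.1 (R 4.3.3) without a block or filter. Its two-sided p-values were adjusted by Benjamini-Hochberg across the 19938 genes, with a threshold of 0.05. The fit was also run on simulated data. The changes set there were larger than that of any clock gene, so it does not tell whether differences of the size seen here could pass. Single values also had an exact permutation test. Promoter sequences are from RefSeq, GRCm38.p6. Members and lists were chosen with earlier results of these data known. Named were all members, the 6 further clock genes and the 4 genes of each other list with the smallest p, and 5 genes most like Nr1d1. Cry1, Cry2, Per3, Rora, Nfil3, Sgk1 and Tsc22d3 were added with values in view. The ranks printed for Csnk1d and Bhlhe40 and the cell markers named singly were also picked outside this rule. Alternatives covered normalization, filter, probe set rule, eBayes options, array weights, replicate block and left-out arrays.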

Additional observations from a re-analysis of the deposited data

How the results depend on the processing

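The count of clock genes past the adjusted threshold was 0 under all 16 alternatives, and that of the other clock machinery likewise. The count over all genes, 1 as reported, was 0 when all probe sets were tested, 0 with the replicate block, 0 without control arrays 1 and 2 and 2 with eBayes trend and robust, and 0 to 1 with 1 array left out. Clock genes at an unadjusted p under 0.05, 2 as reported, numbered 3 after quantile normalization and after cyclic loess, with Nr1d1 added, 1 without control arrays 1 and 2, where the lone control array is assumed to vary like the others, and 1 to 2 with 1 array left out. Clock genes with non-overlapping groups, 3 as reported, numbered 6 without control arrays 1 and 2, and 3 to 4 with 1 array left out. Groups separate more easily by sampling alone when they hold fewer arrays, most of all where 1 array stands for the control group. The 6 therefore cannot be compared with the 3 as reported and is not a result about these genes. Shares of all genes under the alternatives are not given, for this count or for that at an unadjusted p. For the other machinery, 2 as reported at an unadjusted p under 0.05, the count was 1 among genes above the median, 1 with the mean of all probe sets, 1 with all probe sets tested, 1 with array weights, 0 without control arrays 1 and 2, and 0 to 4 with 1 array left out.

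Signs turned after quantile normalization for Nr1d2 (−0.070), Dbp (−0.059) and Nfil3 (−0.099), after cyclic loess for Nr1d2 (−0.082), Dbp (−0.024) and Nfil3 (−0.089), after median centring for Tef (0.0085), and with array weights for Arntl (−0.039) and Nfil3 (−0.10). Without control arrays 1 and 2 they turned for Arntl (−0.24), Nr1d2 (−0.0135), Tef (0.16), Fbxw11 (−0.21), Nono (−0.21) and Cry1 (−0.20). With 1 array left out, the differences ran from −0.29 to 0.45 for Arntl, −0.20 to 0.046 for Clock, −0.073 to 0.17 for Nr1d2, −0.15 to 0.16 for Dbp, −0.15 to 0.066 for Tef and −0.081 to 0.14 for Nfil3. Apart from the fits above, the cause of these turns was not tested.

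Same-numbered arrays of the groups did not deviate together (correlations of −0.023, 0.050 and 0.027 over genes), so the numbers were not taken to pair them. With the replicate block, Hlf had an adjusted p of 0.458 and Per1 of 0.614 by limma, and no clock gene changed its call.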

Other observations

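Among 23 gene names listed as known from other mouse tissues to follow the clock, 20 were matched to a probe set and counted. Of the unmatched names, E4bp4 is another name of Nfil3, whose difference is given above. By limma 0 passed the adjusted threshold, 2 had an unadjusted p under 0.05 (1 higher, 1 lower), against 8.15% of all genes, and the groups did not overlap for 4, against 14.4% of all genes. Tspo, a protein of the outer mitochondrial membrane, measured 9.52, 9.56 and 9.76 in RANKL-deficient cells, against 8.95, 8.86 and 9.14 in control cells. All RANKL-deficient values lay above all control values. The difference was 0.63 (SE 0.14, limma adjusted p = 0.396), between 0.47 and 0.71 under 16 alternatives. Tspo has 1 probe set, so the filter, probe set rule, eBayes options and replicate block could not change this difference. Cebpb, a leucine zipper transcription factor of inflammation, differed by −0.34 (SE 0.13, limma adjusted p = 0.603), and its highest RANKL-deficient value lay below its lowest control value. Tubb2a, a beta tubulin, differed by 1.34 (limma adjusted p = 0.625), and by 0.53 without control array 1, which read 6.30. Wee1, a kinase that delays mitosis and is a direct target of the clock in mouse liver, differed by 0.41 with overlapping groups (limma adjusted p = 0.705), by 0.18 without control array 1 and by 0.67 without control array 2.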
